A study of Drosophila melanogaster with 9 samples.

Results

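The promoters of the proteasome subunit genes of Drosophila melanogaster were followed in ATAC-Seq libraries of S2R+ cells kept at 14, 25 or 29 °C. A promoter peak was counted as a proteasome promoter peak when it overlapped or lay within 500 bp of an annotated transcription start site (TSS) of a gene whose symbol begins with Prosalpha, Prosbeta, Rpn or Rpt. Of all consensus peaks in the table, 7945 were promoter peaks of any gene by this distance, 41 of these were proteasome promoter peaks and 7904 were the other promoter peaks with which they are compared. The 41 peaks belong to 33 of the 48 genes that the symbols name, and 8 genes have 2 peaks.

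S2R+ is an established cell line of embryonic origin with features of blood cells (hemocytes), and ATAC-Seq uses the transposase Tn5 to cut and tag DNA that is not covered by nucleosomes, so that the read count in a peak measures how accessible it is. The experiment had 9 libraries, with 3 replicate cultures at each temperature. All cultures grew for 36 h at 25 °C and then spent 24 h at 14, 25 or 29 °C before harvest, no other treatment is given in the labels, and the tagmentation was done at 25 °C in every case. According to the methods of the study more cells were plated for the cultures at 14 °C, whereas the deposited descriptions give a single number for all cultures, so that cell density and temperature cannot be told apart.

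Libraries had between 3290670 and 10805366 counts in peaks. They differed in how steeply counts were spread over peaks, with a standard deviation of log2 counts between 0.74 and 1.06 at 14 °C, between 0.89 and 1.14 at 25 °C and between 1.01 and 1.31 at 29 °C, and replicate 2 had the widest spread both at 14 °C and at 29 °C. Of the hemocyte genes looked up, srp, Pxn, eater and crq had promoter peaks and Hml and NimC1 had none, but the neuronal gene elav had one too, so that these peaks do not check the cell type.

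The proteasome is the protease that degrades proteins tagged with ubiquitin. Its core particle is a barrel of rings of alpha and beta subunits, in which the alpha rings form the gates and some beta subunits carry the proteolytic sites. The regulatory particle caps the barrel, its Rpt subunits form a ring of ATPases that unfold and thread substrates, and its Rpn subunits bind, deubiquitinate and hold them. Because all of these subunits are needed in fixed proportions, their genes are known in many organisms to be transcribed together, and in flies and mammals a transcription factor of the cap'n'collar family raises their expression when the proteasome is inhibited.

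Nearly all constitutive subunit genes had a peak within 500 bp of a start site, and the same share over all genes is not given. Of the 32 genes for constitutive subunits 30 had a proteasome promoter peak: 6 of 7 alpha ring genes, all 7 beta ring genes, all 6 Rpt genes and 11 of 12 Rpn genes. The exceptions were Prosalpha1, whose nearest peak began 1904 bp from its TSS, and Rpn12, for which this distance was 1015 bp. At Rpn5, Rpn8, Rpn13 and Prosbeta2 the nearest peak lay beside the start site, 137, 14, 13 and 37 bp from it. Prosalpha1 lies 3093 bp from its copy Prosalpha1R, and the 1001 bases around the start sites of both were identical at 984 positions (98.3%). The authors removed reads that did not map uniquely, and whether this bears on the missing peaks was not tested. Accessibility at these copies is therefore given as uncertain and not as absent. By contrast, only 3 of the 16 paralogs, which are known mainly from the male germline, had a peak. At Prosalpha6T and Prosbeta5R2 its centre lay in the coding exon, and at Prosbeta2R2 in the 5′ UTR of the neighbouring gene CG1116.

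Peaks were mostly centred on the start sites. Of the 41 peaks, 28 contained a TSS of the subunit gene itself, and in 22 of these the centre lay within 100 bp of it. The other 13 peaks lay beside the start, up to 430 bp from it, and are called flanking peaks where the gene also had a peak over its TSS. Base composition was slightly lower in GC than elsewhere, with a median of 39.9% in proteasome promoter peaks and 42.5% in other promoter peaks. The proteasome genes were often neighbours of another start site. Of the 41 peaks, 27 (65.9%) were within 500 bp of the TSS of 2 or more genes, which held for 34.0% of other promoter peaks. Peaks that contain a TSS are closer in kind, although 35 proteasome peaks contained a TSS of any gene and 28 one of the subunit gene. A second gene was near 64.3% of these 28 peaks. It was near 41.5% of the 5798 other peaks that contained a TSS of any gene. Such neighbours included CtsL1 at Rpn13, mRpL39 at Prosbeta2, Rrp42 at Prosbeta1, Slbp at Rpn2, AP-2mu at Rpn7 and kat80 at Prosalpha4, and reads in these peaks cannot be given to one gene or the other.

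A search for 6 short promoter motifs, on both strands of the central 300 bases of each peak, found the DNA replication-related element (DRE, TATCGATA), the binding site of the factor Dref at many housekeeping promoters, in 10 of 41 proteasome promoter peaks (24.4%). The share was 7.38% in other promoter peaks and 7.46% in all promoter peaks. The element was present in 7 of the 28 proteasome peaks that contain a TSS of the subunit gene. Among other peaks that contain a TSS of any gene the share was 9.64%. The peaks with a match were those of Prosalpha3, Prosalpha5, Prosalpha6 (over the TSS), Prosbeta1, Prosbeta2 (on the side of mRpL39), Prosbeta6, Rpn3, Rpn13, Rpt3 (flanking) and Rpt5. The stretches around the match are given to show where the element stands at 6 of these promoters. They are from the dm6 genome and are written 5′ to 3′ in the direction of the subunit gene, with the element in capitals, and are shorter where the match lies in or next to an annotated exon.

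Prosalpha6: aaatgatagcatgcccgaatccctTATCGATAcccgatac
Prosbeta2: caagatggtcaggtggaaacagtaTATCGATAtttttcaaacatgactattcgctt
Prosbeta6: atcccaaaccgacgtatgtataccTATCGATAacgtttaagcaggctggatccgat
Rpn3: accgtaaaacgTATCGATAaattgaaacgt
Rpt3: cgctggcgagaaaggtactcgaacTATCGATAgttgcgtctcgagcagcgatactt
Rpt5: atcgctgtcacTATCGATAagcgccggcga

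These stretches are at chr2L:10221311-10221350 (plus strand) for Prosalpha6, chr3L:14999667-14999722 (plus) for Prosbeta2, chr3L:16610431-16610486 (minus) for Prosbeta6, chr2L:19051855-19051884 (plus) for Rpn3, chrX:11124735-11124790 (plus) for Rpt3 and chr3R:23752819-23752848 (plus) for Rpt5. The middle of the element was 12 bp upstream of the nearest TSS at Prosalpha6, 40 bp at Prosbeta6, 42 bp at Rpt5 and 59 bp at Rpn3. At Prosbeta2 and Rpt3 it was 256 and 338 bp upstream, on the side of the divergent genes mRpL39 and CG11122. The other motifs were found at shares closer to those of other promoter peaks, or below them. The core of the antioxidant response element (TGACNNNGC), to which the cap'n'collar factor binds with a small Maf partner, was found in 4 proteasome peaks (9.76%), at Prosalpha2, Prosbeta7, Rpt6 and the flanking peak of Rpn9, against 10.6% of other promoter peaks. The core of motif 1 (GGTCACACT) was in 3 (7.32%), against 5.78%, and the TATA box (TATAAA) in 11 (26.8%), against 28.7%. The E-box (CAGCTG) was in 5 (12.2%), against 20.3%, and GAGAG in 9 (22.0%), against 41.0%. None of these shares was tested, and a match is no evidence of binding.

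At 25 °C the proteasome promoter peaks were of ordinary height. Accessibility is given as a counts-per-million (CPM) value, which relates the counts in a peak to those in all peaks of its library, with library sizes scaled by edgeR's TMM factors. To compare levels between peaks it is given per 500 bp, the length from start to end of nearly all peaks, since only those of Rpn1 (1283 bp) and Rpn7 (860 bp) were longer. The median of the mean level at 25 °C was 41.9 CPM per 500 bp in the 41 proteasome promoter peaks, with quartiles of 28.4 and 57.3, and 42.5 in other promoter peaks, with quartiles of 29.3 and 67.6. Their levels ran from 15.4 to 138.5 CPM per 500 bp. Together, the 41 peaks held a mean of 0.203% of the counts in peaks at 14 °C, 0.209% at 25 °C and 0.207% at 29 °C. Single libraries ran from 0.198% to 0.211%, from 0.208% to 0.209% and from 0.2% to 0.215% (n = 3 each).

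Members of one complex differed several-fold from each other in promoter accessibility. The 4 highest peaks were all at Rpn genes. They were the upstream peak of Rpn8 with 138.5 ± 16.6 CPM per 500 bp, Rpn13 with 130.2 ± 12.9, the second peak of Rpn8 with 117.9 ± 12.6 and Rpn2 with 105.1 ± 14.2 (SD, n = 3 each), and neighbours in this order lay within each other's spread. Prosalpha2 followed with 76.9 ± 9.72 CPM per 500 bp. The lowest were both peaks of Prosbeta4, at 16.3 ± 1.63 CPM per 500 bp over the TSS and 15.4 ± 1.36 on the side of Nubp1, and that of Prosalpha4 with 19.7 ± 3.53. By group, the median was 51.7 CPM per 500 bp in the 13 Rpn peaks, 43.1 in the 9 alpha ring peaks, 40.0 in the 7 Rpt peaks and 39.7 in the 12 beta ring peaks. The Rpn group spanned most of the range, as Rpn3, Rpn10 and Rpn11 had means between 26.7 and 28.4 CPM per 500 bp.

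**Figure D1:**
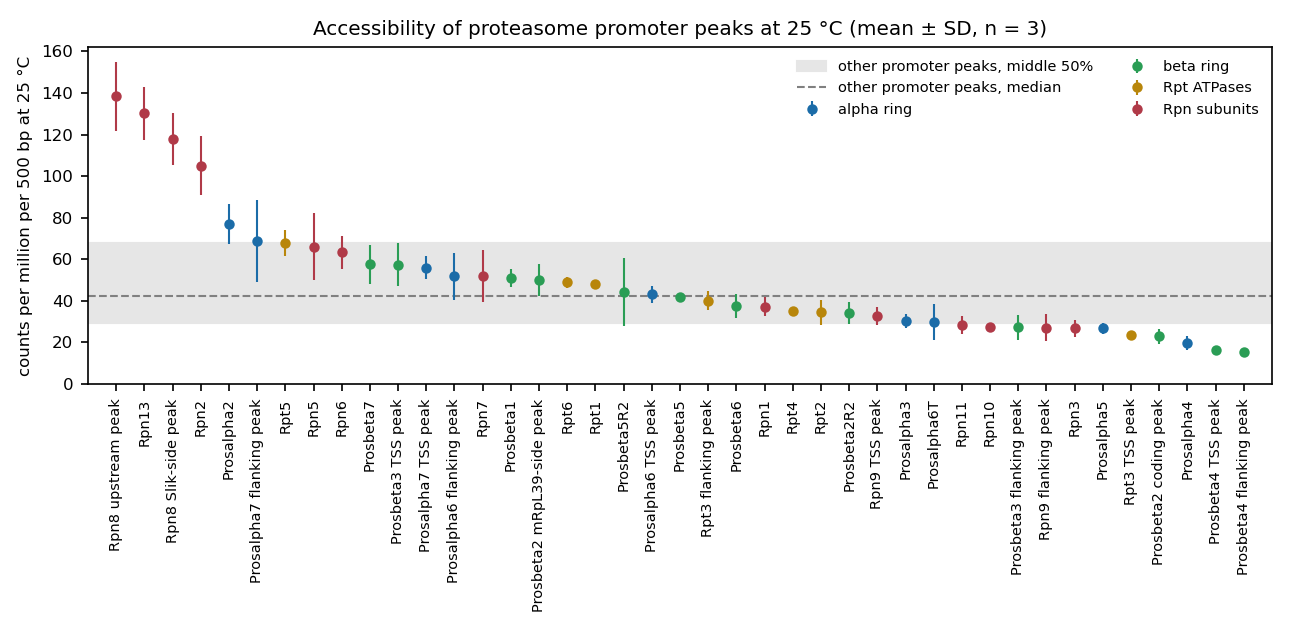
Accessibility at 25 °C in CPM per 500 bp of the 41 proteasome promoter peaks, in order of their level. Points are means of 3 libraries with SD bars, coloured by group, and the grey band and dashed line give the quartiles (29.3 and 67.6) and the median (42.5) of the 7904 other promoter peaks. The 4 highest peaks are at Rpn genes, and both Prosbeta4 peaks are the lowest.

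Between 14 and 29 °C, the comparison over the widest range of temperature, a single proteasome promoter peak passed the test. The upstream peak of Rpn8 was less accessible at 14 °C (edgeR quasi-likelihood test, adjusted p = 0.0336), so that 1 of 41 peaks was lower and 0 were higher. Over all consensus peaks, 0.664% were lower and 0.559% were higher at 14 °C at this threshold, and over other promoter peaks 0.557% and 0.354%. At an unadjusted p under 0.05, 3 of 41 proteasome peaks differed (7.32%), against 33.3% of all peaks and 24.4% of other promoter peaks. The CPM of the 3 libraries did not overlap between the temperatures in 5 proteasome peaks, being all lower at 14 °C in 4 of them (9.76%) and all higher in 1 (2.44%). Over all peaks 15.1% were lower and 12.8% were higher in this way.

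The differences were small in size as well. The log2 fold change (14 over 29 °C) had a median of -0.14 in the 41 proteasome peaks, with 15 above 0, and a median of -0.17 in other promoter peaks, of which 34.8% were above 0. Regardless of direction, the median size of the log2 fold change was 0.23 in proteasome peaks, with an upper quartile of 0.30, and 0.33 in other promoter peaks, with an upper quartile of 0.53. The 95% confidence interval stayed between -1 and 1, that is within a 2-fold change either way, in 34 of the 41 peaks. The standard error had a median of 0.21 in proteasome peaks and 0.22 in other promoter peaks. The zero point of these values rests on the scaling. With library sizes set by the total count in peaks, all promoter peaks moved up by about the same amount, and the medians became 0.01 in proteasome peaks and -0.02 in other promoter peaks.

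The number of calls depended on the libraries and on the block. Libraries of the same replicate number deviated together at 14 and 29 °C. Replicates 1 and 3 also deviated with each other, so that only replicate 2 stood apart. When the number was used as a block in a fit of only these 6 libraries, 4 proteasome peaks were higher (Prosalpha6T, Prosbeta5R2 and both peaks of Prosalpha7). A further 5 were lower (both peaks of Rpn8, Rpn5, Rpn6 and Prosalpha3). In that fit, 33.5% of all peaks were higher and 25.1% lower, and of other promoter peaks 15.7% and 31.9%, which compares with 9.76% and 12.2% of proteasome peaks. With the block on 6 libraries and libraries also aligned to a common curve against peak height, 13 proteasome peaks were called (31.7%), among them Rpt4, both peaks of Rpt3 and the coding exon peak of Prosbeta2, against 45.0% of all peaks and 36.0% of other promoter peaks. With the block in the fit of all 9 libraries, the upstream peak of Rpn8 was the only one called (2.44%). This compares with 2.79% of all peaks and 1.96% of other promoter peaks. With the same alignment added Prosalpha3 was called too, which makes 4.88% of proteasome peaks against 6.38% of all peaks. Leaving out replicate 2 at 14 °C from the fit of all libraries likewise gave 4 higher and 4 lower proteasome peaks, against 26.3% and 23.4% of all peaks and 11.3% and 29.8% of other promoter peaks. Leaving out any of 6 other libraries, namely replicate 1 or 3 at 14 °C, replicate 2 at 25 °C or any replicate at 29 °C, left 0 proteasome peaks called. In these fits between 0.0% and 0.0932% of all peaks were called, so that 0 is near these shares.

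**Figure D2:**
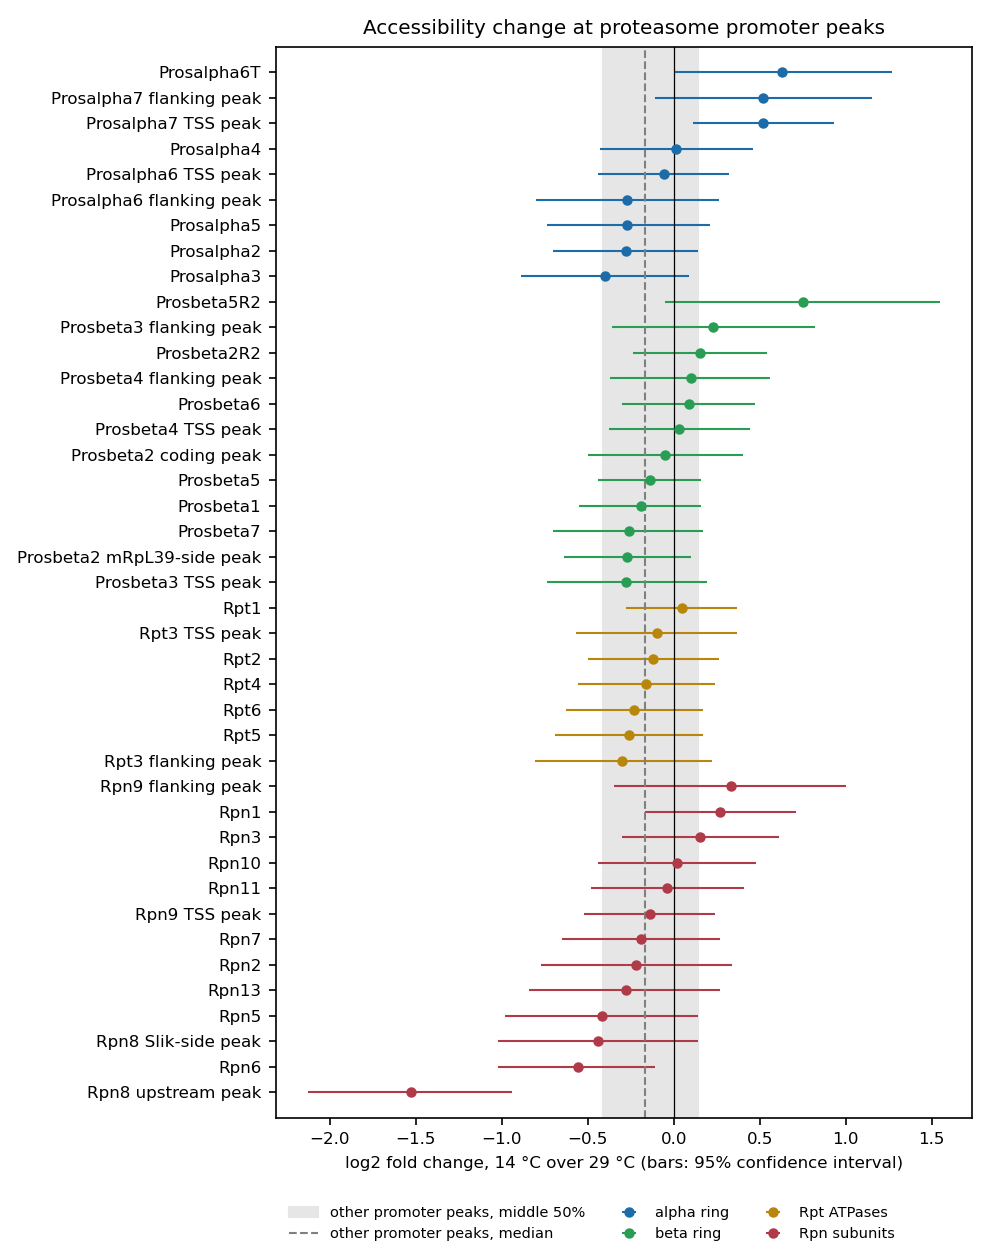
Log2 fold change of accessibility (14 over 29 °C) with its 95% confidence interval at each of the 41 proteasome promoter peaks, ordered within the alpha ring, beta ring, Rpt and Rpn groups. The grey band and dashed line are the quartiles and the median (-0.17) of the 7904 other promoter peaks, and the upstream peak of Rpn8 (-1.53) lies apart from the rest.

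Rpn8 is a lid subunit that pairs with the deubiquitinase Rpn11 and has no catalytic activity of its own. Its gene has 2 annotated start sites on the plus strand of chromosome arm 2R, at 24400028 and 24403005 in dm6, and shares its locus with Slik, a protein kinase gene on the minus strand whose start sites lie between those of Rpn8. The upstream peak (2R, 24399514 to 24400014) ends 14 bp before the first of these sites and has its centre in an intron of Slik. It had 54.0, 93.5 and 53.8 CPM at 14 °C, 138.7, 121.8 and 155.0 CPM at 25 °C and 185.9, 233.7 and 164.6 CPM at 29 °C. The temperatures did not overlap, with the lowest values in the cold and the highest in the warmth, and only replicate 2 at 14 °C came above 54.0 CPM in its group. The mean was 67.1 ± 22.9 CPM at 14 °C and 194.7 ± 35.4 CPM at 29 °C (SD, n = 3 each), a log2 fold change of -1.53 ± 0.27 (SE) or 2.90-fold lower at 14 °C.

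The change ranked high among promoters. Of the 7945 promoter peaks, 6 had a lower log2 fold change and 25 had a smaller p, and 45 were called lower at 14 °C. With libraries aligned to a common curve against peak height, which takes out the difference in spread between libraries, the log2 fold change was -1.07 (adjusted p = 0.000648), and with the replicate block on 6 libraries it was -1.56 (adjusted p = 1.27e-11). DESeq2 gave -1.52 (adjusted p = 3.54e-06). With DESeq2 it was the only proteasome peak called (2.44%), against 12.6% of all peaks and 8.89% of other promoter peaks. Leaving out 1 library at a time gave values between -1.86 and -1.38, with adjusted p between 0.00616 and 0.17, and the fit of only the 6 libraries without a block gave an adjusted p of 0.0948, so that the direction was kept in every fit and the call was not.

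Against 25 °C, the upstream peak of Rpn8 had a log2 fold change of -1.04 ± 0.27 at 14 °C (SE, adjusted p = 0.617, unadjusted p = 0.00262) and of 0.49 at 29 °C (adjusted p = 0.822, unadjusted p = 0.0906). Neither passed the threshold. The libraries did not overlap in either comparison, for which no share over all peaks is given. The difference between 14 and 25 °C passed with libraries aligned against peak height (-0.74, edgeR adjusted p = 0.0174, and 0.0157 with the replicate block added) and with DESeq2 (-1.02, adjusted p = 0.0381). The second peak of Rpn8 (2R, 24402196 to 24402696), 2182 bp away, contains both start sites of Slik and lies 309 bp from the downstream start of Rpn8. There, values were 70.5, 137.6 and 86.9 CPM at 14 °C, 107.3, 114.5 and 131.8 CPM at 25 °C and 124.6, 157.5 and 118.6 CPM at 29 °C. The temperatures overlapped, and the log2 fold change of -0.44 between 14 and 29 °C did not pass (adjusted p = 0.231). Whether the peaks of this locus differ in their change was not tested, and the reads in both could stem from either gene.

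The remaining regulatory particle genes followed with values closer to 0. Rpn6, a lid subunit that clamps lid, core and ATPase ring together, had 43.6, 64.9 and 46.9 CPM at 14 °C, 54.6, 65.1 and 70.2 CPM at 25 °C and 62.3, 87.5 and 80.6 CPM at 29 °C. Its peak, which is shared with the gene ave, had the second lowest value of all members, with a log2 fold change of -0.56 ± 0.21 between 14 and 29 °C (SE, adjusted p = 0.123), and 1 library at 14 °C lay above the lowest at 29 °C. Rpn13, a ubiquitin receptor of the base, was of interest because the study used the region upstream of it in its reporter assay. It had 93.3, 145.1 and 94.3 CPM at 14 °C, 117.7, 129.3 and 143.5 CPM at 25 °C and 113.7, 171.3 and 120.2 CPM at 29 °C. In both shifted groups replicate 2 was the highest, the groups overlapped, and the log2 fold change of -0.28 ± 0.25 did not pass (SE, adjusted p = 0.406). Its direction turned to 0.21 with libraries aligned against peak height.

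Rpn3, a lid subunit, was the lowest of its group at 25 °C. It had 31.4, 27.0 and 29.1 CPM at 14 °C, 29.9, 28.2 and 21.8 CPM at 25 °C and 28.7, 23.3 and 26.7 CPM at 29 °C, and the groups overlapped. In the rest of the Rpn group, the log2 fold change between 14 and 29 °C was -0.42 at Rpn5, -0.22 at the scaffold subunit Rpn2, -0.19 at Rpn7 and -0.04 at the deubiquitinase Rpn11. It was 0.02 at the ubiquitin receptor Rpn10 and 0.27 at the scaffold subunit Rpn1, and none of these passed in the main fit. At Rpn9 it was -0.14 over the TSS and 0.33 in the flanking peak within its coding exon. Rpn1 and Rpn11 were called with the block on 6 libraries and libraries aligned against peak height, as were 45.0% of all peaks. Rpn5 was called with the block on 6 libraries (58.6% of all peaks) and without replicate 2 at 14 °C (49.7%).

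In the main fit the 6 ATPase genes, the group with the fewest peaks, had the narrowest range of change. Between 14 and 29 °C their 7 peaks had log2 fold changes from -0.30 to 0.05, with 1 above 0 (Rpt1) and a median of -0.16, and 0 were called in the fit of all libraries. With libraries aligned against peak height their median was -0.29, the lowest of the groups. The tallest was Rpt5, whose peak also covers the start of RanBP3. It had 52.7, 69.8 and 50.4 CPM at 14 °C, 68.4, 61.2 and 73.7 CPM at 25 °C and 74.4, 78.2 and 54.1 CPM at 29 °C. Its log2 fold change (14 over 29 °C) of -0.26 had the smallest p of its group and did not pass (adjusted p = 0.330). The lowest was the peak over the TSS of Rpt3, with 23.8, 24.1 and 18.3 CPM at 14 °C, 21.5, 23.3 and 25.7 CPM at 25 °C and 21.6, 28.4 and 20.5 CPM at 29 °C. In both peaks the groups overlapped.

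In the beta ring the catalytic subunits are Prosbeta1 (caspase-like), Prosbeta2 (trypsin-like) and Prosbeta5 (chymotrypsin-like), and none of their peaks passed in any comparison in the fit of all libraries. Prosbeta5 was one of the steadiest members, with 41.1, 38.0 and 38.6 CPM at 14 °C, 43.1, 41.1 and 41.5 CPM at 25 °C and 43.9, 45.3 and 40.0 CPM at 29 °C. The log2 fold change between 14 and 29 °C was -0.14, with a 95% confidence interval from -0.44 to 0.16. Prosbeta1 had 44.3, 47.1 and 38.1 CPM at 14 °C, 46.3, 52.0 and 54.4 CPM at 25 °C and 43.4, 56.6 and 47.5 CPM at 29 °C. Its log2 fold change was -0.19, with an interval from -0.55 to 0.16, and the groups overlapped.

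Prosbeta2 has no peak over its own start. On the side of mRpL39, 37 bp from the TSS, its taller peak had 40.6, 45.5 and 35.5 CPM at 14 °C, 42.0, 51.1 and 57.4 CPM at 25 °C and 46.9, 53.2 and 46.3 CPM at 29 °C. Here the libraries of 14 and 29 °C did not overlap, although narrowly, and the log2 fold change of -0.27 did not pass (adjusted p = 0.249). The peak in its coding exon had 23.0, 18.1 and 23.1 CPM at 14 °C, 18.9, 24.5 and 25.4 CPM at 25 °C and 19.8, 23.1 and 23.3 CPM at 29 °C, with overlapping groups.

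The tallest and the lowest beta ring peaks did not pass either. Prosbeta7 had 47.3, 60.9 and 43.3 CPM at 14 °C, 51.2, 52.8 and 68.4 CPM at 25 °C and 52.6, 71.5 and 57.9 CPM at 29 °C. Its log2 fold change of -0.26 had an interval from -0.70 to 0.17. The peak of Prosbeta4 on the side of Nubp1 had 16.8, 16.3 and 16.8 CPM at 14 °C, 14.7, 17.0 and 14.6 CPM at 25 °C and 19.5, 12.4 and 14.8 CPM at 29 °C. The other peaks of constitutive beta ring genes had log2 fold changes of -0.28 and 0.23 (Prosbeta3, over the TSS and in its coding exon), 0.03 (Prosbeta4, over the TSS) and 0.09 (Prosbeta6).

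In the alpha ring Prosalpha7 stood on the other side of 0 from most members. Its TSS peak, between Prosalpha7 and CG1671, had 77.5, 54.4 and 68.7 CPM at 14 °C, 59.2, 58.9 and 49.5 CPM at 25 °C and 47.3, 39.2 and 53.8 CPM at 29 °C. The libraries of 14 °C lay above those of 29 °C, by a margin of less than 1 CPM, and this was the only member of which that held. The log2 fold change was 0.52 ± 0.19 (SE, adjusted p = 0.121), and it passed with the replicate block on 6 libraries (0.52, adjusted p = 0.000729) and without replicate 2 at 14 °C (0.65, adjusted p = 0.0171). It did not pass with the block on all 9 libraries (0.51, adjusted p = 0.076), and leaving out replicate 1 at 14 °C or replicate 2 at 29 °C gave 0.40 (adjusted p = 0.348 and 0.387). The second peak of this gene, in the coding exon of CG1671, had the same log2 fold change of 0.52, with a wider interval from -0.11 to 1.15.

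Prosalpha2 was the tallest alpha ring peak with 55.9, 79.3 and 66.4 CPM at 14 °C, 72.8, 69.8 and 87.9 CPM at 25 °C and 73.7, 92.8 and 78.4 CPM at 29 °C. The lowest was Prosalpha4, with 19.3, 24.0 and 19.4 CPM at 14 °C, 17.2, 18.1 and 23.7 CPM at 25 °C and 20.7, 22.6 and 18.9 CPM at 29 °C. In neither were the groups apart, and the log2 fold change (14 over 29 °C) was -0.28 at Prosalpha2 and 0.01 at Prosalpha4. Prosalpha3 had -0.40, Prosalpha5 had -0.27 and Prosalpha6 had -0.06 over the TSS and -0.27 on the side of Npc1a, none of which passed in the main fit. With the block on 6 libraries and libraries aligned against peak height, Prosalpha3 and Prosalpha5 were called, as were 45.0% of all peaks.

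The paralogs with a peak in their coding exon had the highest log2 fold changes (14 over 29 °C) of all members. Prosbeta5R2 had 69.6, 34.2 and 58.1 CPM at 14 °C, 56.7, 49.9 and 25.6 CPM at 25 °C and 32.9, 20.5 and 43.7 CPM at 29 °C, and the log2 fold change was 0.75 ± 0.36 (SE, adjusted p = 0.165). Replicates differed widely at every temperature and the groups overlapped. The call was gained with the replicate block on 6 libraries (0.75, adjusted p = 9.77e-07) and without replicate 2 at 14 °C (1.01, adjusted p = 0.0326). It was not gained with the block on all 9 libraries (0.74, adjusted p = 0.111), and the value was 0.28 with libraries aligned against GC content (adjusted p = 0.351) and 0.49 without replicate 2 at 29 °C (adjusted p = 0.463). Prosalpha6T averaged 35.7 ± 7.49 CPM at 14 °C and 23.1 ± 5.77 CPM at 29 °C (SD, n = 3 each), a log2 fold change of 0.63 that did not pass (adjusted p = 0.151). At Prosbeta2R2 it was 0.15.

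**Figure D3:**
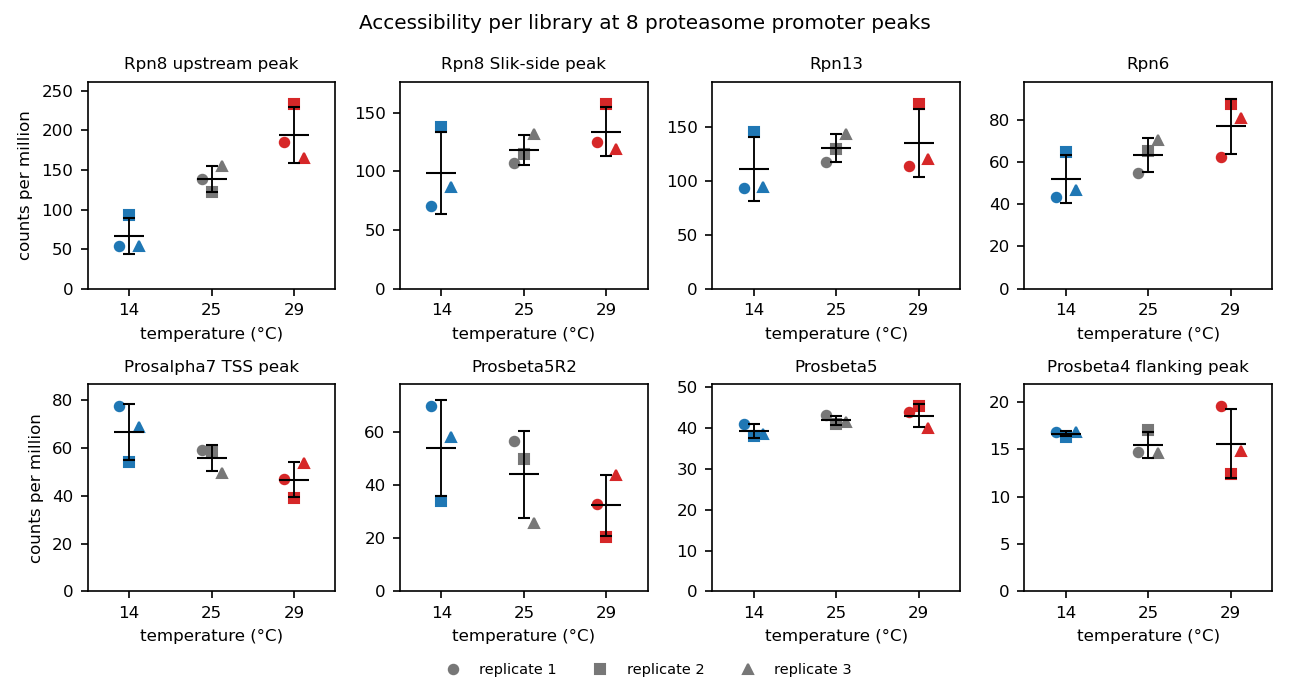
Accessibility in CPM in each library at 14, 25 and 29 °C for 8 proteasome promoter peaks, with the axis starting at 0. Symbols are replicates 1 to 3 and bars are means ± SD (n = 3 each). The upstream peak of Rpn8 is lowest at 14 °C and highest at 29 °C without overlap, whereas Prosbeta5 and the peak of Prosbeta4 next to Nubp1 lie at similar levels at all temperatures.

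The sign of the log2 fold change differed with the place of the peak. The 7 proteasome peaks centred in a coding exon, at Rpn1, Rpn9, Prosalpha6T, Prosalpha7, Prosbeta2, Prosbeta3 and Prosbeta5R2, had a median log2 fold change (14 over 29 °C) of 0.33, and 6 of them were above 0. Centred in a 5′ UTR were 18 peaks with a median of -0.08 and 8 above 0, between genes 12 peaks with a median of -0.21 and 1 above 0, and in an intron 4 peaks with a median of -0.50 and 0 above 0. Other promoter peaks showed the same order for coding exons, with a median of 0.48 and 78.8% above 0 in 786 peaks, against -0.21 in 5′ UTRs, -0.18 between genes and -0.24 in introns. Coding exon peaks were also richer in GC, with a median of 51.2% in the 7 proteasome peaks and 49.7% in the 786 others, than peaks in 5′ UTRs (39.0% and 42.5%). Across the 41 proteasome peaks the log2 fold change had a Pearson correlation of 0.34 with GC content and of -0.40 with mean log2 CPM, and across the 7904 other promoter peaks of 0.18 and -0.54, where peaks share their libraries and are no independent replicates. When libraries were aligned to a common curve against GC content, the median of the 7 coding exon peaks was -0.01 with 3 above 0, and when they were aligned against peak height it was 0.25 with 4 above 0. In the 786 other coding exon peaks these medians were 0.14 with 499 above 0 and 0.26 with 563 above 0. With the alignment against GC content, other promoter peaks had medians of -0.16 in 5′ UTRs, -0.11 between genes and -0.21 in introns.

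**Figure D4:**
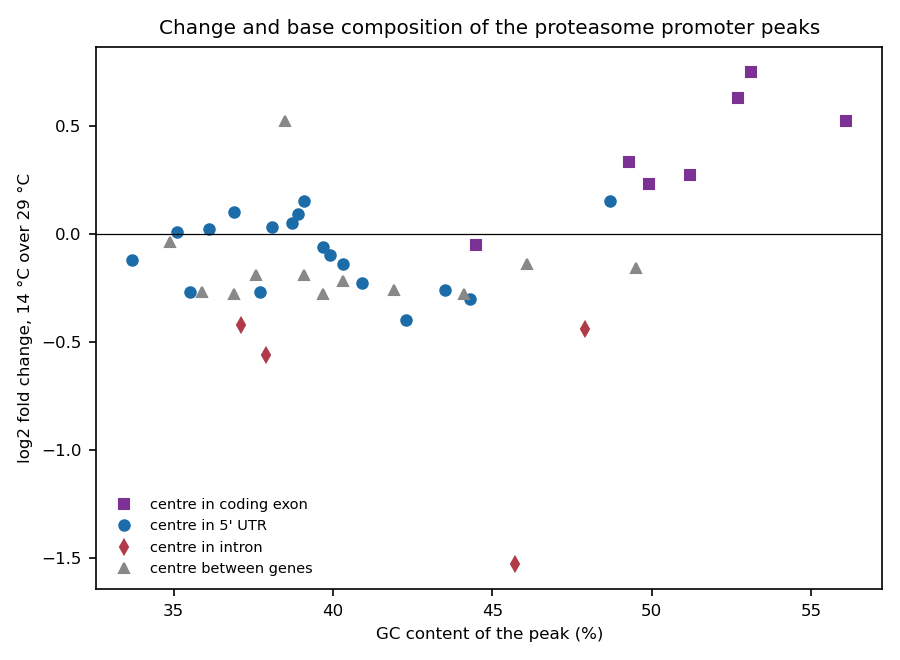
Log2 fold change of accessibility (14 over 29 °C) against the GC content of the peak in percent for the 41 proteasome promoter peaks, with symbols for the place of the peak centre. Of the 7 peaks centred in a coding exon, 6 lie above 0 at a GC content of 49.3% or more, and the upstream peak of Rpn8 is the intron peak at -1.53.

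Between 14 and 25 °C, which compares the cold with the usual culture temperature, no proteasome promoter peak passed the test. With edgeR 0 of 41 were called at an adjusted p under 0.05, against 0.00582% of all peaks (1 peak), and at an unadjusted p under 0.05 there was 1 of 41, the upstream peak of Rpn8 (2.44%), against 5.33% of all peaks. DESeq2 called this 1 peak, against 0.425% of all peaks and 0.304% of other promoter peaks, and so did edgeR with libraries aligned against peak height, without the replicate block (0.472% of all peaks) and with it (0.448%). The median log2 fold change (14 over 25 °C) was -0.09 in proteasome peaks, with 19 above 0, and -0.09 in other promoter peaks, and its median size was 0.17 and 0.21. The interval stayed within a 2-fold change in 38 of the 41 peaks. Apart from Rpn8, Rpn5 had the lowest value (-0.50, unadjusted p = 0.0754), and the highest value in the set was 0.28, at Prosbeta5R2 and the flanking peak of Rpn9.

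Between 29 and 25 °C, which compares mild warmth with the usual culture temperature, 0 of 41 peaks passed the test with edgeR, as did 0.0% of all peaks, and DESeq2 called 0 proteasome peaks, against 0.14% of all peaks. At an unadjusted p under 0.05 there were 0 of 41 as well, against 4.58% of all peaks. The median log2 fold change (29 over 25 °C) was 0.01 in proteasome peaks and 0.05 in other promoter peaks, and its median size was 0.09 and 0.15. Values ran from -0.47 at Prosbeta5R2 to 0.49 at the upstream peak of Rpn8, which are also among the extremes between 14 and 29 °C. Both comparisons with 25 °C share their control libraries, and these share libraries with the comparison between 14 and 29 °C.

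The distance that defines a promoter peak mattered little for these counts. Within 250 bp of a TSS there were 36 proteasome peaks, and within 1000 bp there were 44, each with the upstream peak of Rpn8 as the only one called. The peaks closest inside 500 bp, at 430 bp (Prosalpha7) and 416 bp (Prosbeta3), had log2 fold changes of 0.52 and 0.23 between 14 and 29 °C. Those just outside were at 860 and 909 bp at Prosbeta6, with -0.39 and 0.67, and at 936 bp at Prosbeta5R2, with 0.82.

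Genes that act with the proteasome gave 0 calls in any comparison with edgeR, where the shares over all peaks were 1.22% between 14 and 29 °C, 0.00582% between 14 and 25 °C and 0.0% between 29 and 25 °C, so that 0 is near these shares. Of 18 regulators, assembly factors and associated proteins, 17 were found in the annotation (all but PA200), and 16 had promoter peaks, 26 in all, with a median log2 fold change between 14 and 29 °C of -0.23 and a range from -0.93 to 0.40. The lowest was 1 of 7 promoter peaks of cnc, which encodes the cap'n'collar factor (-0.93 ± 0.23, SE, adjusted p = 0.0769). Pomp, a chaperone of core assembly, had -0.24, and TER94, the segregase that prepares many substrates, had -0.21. For ubiquitin and its activation, 12 of 13 genes had 17 promoter peaks, with a median of -0.18 and the lowest value of -0.73 at the polyubiquitin gene Ubi-p5E (adjusted p = 0.122). The COP9 signalosome, a complex whose subunits resemble those of the lid, had promoter peaks at 7 of 9 genes, 10 in all, with a median of -0.14 and a range from -0.25 to 0.63, and CSN5, its counterpart of Rpn11, had 0.05 and 0.16.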

How the data were processed

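Members and gene lists were chosen with earlier results of these data known, and the hemocyte genes after the data were seen. According to the methods of the study, the authors trimmed reads with Trimmomatic 0.38, aligned them with Bowtie2 to dm6, discarded reads that were duplicates, mitochondrial or not uniquely mapped, shifted reads for the Tn5 cut, ran MACS2 on every library and counted reads with DiffBind in 17175 consensus peaks centred on summits. The raw counts were deposited without normalization. The authors' normalized signal, which in all but 4 peaks is the raw count minus 1 divided by a size factor, served to obtain these factors, and its values were not tested. Start sites and exons are from Ensembl release 115 in dm6 coordinates, with transposable elements left out, and sequences from the RefSeq genome of the same assembly.

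All peaks were tested with edgeR (version 4.0.16, R version 4.3.3), using TMM scaling, a robust quasi-likelihood fit of the 9 libraries with temperature as factor and the Benjamini-Hochberg method over the whole table, with adjusted p under 0.05 as threshold. The test was checked on simulated data. SE is the log2 fold change divided by the root of the F statistic. The biological coefficient of variation was 22.7%, and the counting error 5.98% at the median count of 279.2 of a member. Nothing says that replicate cultures were grown on separate days, so p-values measure the spread between cultures. Values in each library are printed for the member with the smallest p in each group, those called, the tallest and lowest of each group by CPM, Rpn13 and the catalytic beta subunits, and were added for Rpn6 and the second Rpn8 peak after they were seen.

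Alternatives were RLE scaling, total counts in peaks, the authors' size factors, loess offsets per library (span 0.3) against peak height or GC content, the replicate number as block, only the 6 libraries compared, a filter at a mean count of 182 (12884 peaks), an adjusted p under 0.01, windows of 250 and 1000 bp, DESeq2 1.42.0 and each library left out. The block on 6 libraries, with and without offsets, and 3 narrower member sets were chosen after seeing the data. Deviations of equal replicate numbers from their group means correlated across peaks at 0.634, 0.826 and 0.538 between 14 and 29 °C. Numbers 1 and 3 correlated with each other as well (0.559 and 0.551), whereas replicate 2 correlated negatively with both (-0.763 to -0.616). The values set replicate 2 apart and do not show that replicates 1 and 3 were paired. The block on the replicate number was thus taken from the data alone. Equal numbers did not correlate positively throughout between 14 and 25 °C (0.671, -0.453 and -0.737) or 29 and 25 °C (0.528, -0.488 and -0.601).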

Additional observations from a re-analysis of the deposited data

How the results depend on the processing

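The direction of the upstream Rpn8 peak between 14 and 29 °C held in all 21 alternatives, at log2 fold changes from -1.86 to -1.07, and its call in 14 of them. Depth limits the lowest members, where the smallest count in a library was 46, with a counting error of 14.7%. With 3 cultures per temperature, 7 of 41 peaks had an interval that reaches beyond a 2-fold change between 14 and 29 °C. The upstream peak of Rpn8 is among them, and its estimate of -1.53 itself lies beyond this limit.

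Between 14 and 29 °C the number of lower members, 1 in the main result, was 2 with the replicate block and offsets against peak height. There 6.38% of all peaks were called in either direction. It was 0 with the fit of 6 libraries, where 0.0349% of all peaks were called. It was also 0 at an adjusted p under 0.01, for which no share over all peaks is given. Among the 28 peaks that contain the TSS it was 0 too, where 0.664% of all peaks were lower in the main result. It was 5 with the replicate block on 6 libraries and 9 when offsets against peak height were added. In both, 4 members were higher, and 58.6% and 45.0% of all peaks were called in either direction. Leaving out 1 library gave between 0 and 4 lower and between 0 and 4 higher members, and a median log2 fold change from -0.16 to -0.06. The share of all peaks called in either direction then ran from 0.0% to 49.7%, and was highest without replicate 2 at 14 °C. The median of -0.14 became 0.01 with total counts in peaks, -0.06 with the filter on low counts (34 members) and 0.03 in the 14 peaks without another gene's TSS. Between 14 and 25 °C, 1 member was lower with offsets against peak height, with these and the replicate block, and with DESeq2, against 0.472%, 0.448% and 0.425% of all peaks. The median there became 0.0 with total counts and 0.11 in the 14 peaks without another gene's TSS, and lay between -0.12 and -0.01 when 1 library was left out. Between 29 and 25 °C 0 members were called in any alternative. The causes of these shifts were not tested, other than that the 0.01 threshold is stricter by construction.

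Some named members that did not pass turned their direction between 14 and 29 °C. With offsets against peak height, with these and the replicate block, and with these and the block on 6 libraries, the log2 fold change became 0.21, 0.22 and 0.21 at Rpn13, -0.26, -0.26 and -0.24 at Rpn3, 0.04, 0.04 and 0.03 at Prosalpha2, -0.35, -0.37 and -0.37 at Prosalpha4, and -0.13, -0.13 and -0.14 at the Prosbeta4 peak next to Nubp1. With total counts in peaks it became 0.05 at the TSS peak of Rpt3, 0.11 at the coding peak of Prosbeta2 and 0.01 at Prosbeta5, and with offsets against GC content 0.02 at the TSS peak of Rpt3. Leaving out 1 library gave values from -0.19 to 0.06 at the TSS peak of Rpt3, from -0.11 to 0.08 at Prosalpha4, from -0.12 to 0.07 at the coding peak of Prosbeta2 and from -0.06 to 0.31 at the Prosbeta4 peak next to Nubp1.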
